A study of Sus scrofa domesticus with 150 samples.

Results

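The genes described here are 9 collagen genes, COL1A1, COL1A2, COL3A1, COL5A1, COL5A2, COL5A3, COL11A1, COL12A1 and COL14A1, whose mRNA was followed through wound healing in pig skin. They were found in the deposited gene count table by symbol, taken from its name column or, where that was empty, from the protein matched in the gene's description. Each symbol gave 1 row, so the set is 9 of 30461 genes. COL5A3 and COL14A1 rest on the protein match alone, and the other 7 on the name column. Their identifiers in the table are ENSSSCG00025071146 for COL1A1, ENSSSCG00025027200 for COL1A2 and ENSSSCG00025064886 for COL3A1. They are ENSSSCG00025037158 for COL5A1, ENSSSCG00025066689 for COL5A2 and ENSSSCG00025054667 for COL5A3. The last 3 are ENSSSCG00025018266 for COL11A1, ENSSSCG00025019080 for COL12A1 and ENSSSCG00025006219 for COL14A1. The table places them on unplaced contigs of an assembly that is not given in the sources used here. COL3A1 (plus strand, 760530 to 819436) and COL5A2 (minus strand, 815477 to 1184417) lie on the same contig and the others on contigs of their own. The first 7 genes encode chains of fibril-forming collagens, whereas COL12A1 and COL14A1 encode fibril-associated collagens, which sit on the fibril surface. The labels give a day and a location in the wound and name no granulation tissue, so the genes are called collagen genes below.

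The study made 12 full-thickness circular wounds, 2 cm in diameter, on the back of each of 6 female Yorkshire-mix pigs. All wounds were covered with Telfa Clear and Tegaderm and had no other treatment, so untreated healing is the only condition. Day 0 is the whole piece of skin excised from each animal, without a location (n = 6 samples). On 14 later days, biopsies of 3.5 mm were taken from the edge and the center of the same wound, which gave 72 edge and 72 center samples. A topical antibiotic was put on the biopsy site. Comparisons with day 0 thus also differ in how the tissue was taken, which cannot be told apart from wounding. Animals 1, 2 and 3 were sampled on days 1, 3, 5, 7, 11, 15 and 21, and animals 4, 5 and 6 on days 2, 4, 6, 9, 13, 16 and 19. Each of those animals gave 2 wounds on 10 of the days (n = 6 samples per location) and 1 wound on days 15, 16, 19 and 21 (n = 3). The 29 combinations of day and location are called states. For tests, days were joined into 4 spans that hold both sets of animals, days 1 to 3, 4 to 7, 9 to 13 and 15 to 21. The sets are not equally weighted in all of them. Days 1 to 3 hold more days of animals 1 to 3, and days 9 to 13 more days of animals 4 to 6. Comparisons of these spans with day 0 or with another span thus weigh the animals differently on the 2 sides.

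Collagen fibrils carry the tensile strength of dermis and scar. Type I collagen, built from the COL1A1 and COL1A2 chains, and type III collagen, built from COL3A1 alone, form the bulk of dermal fibrils. Young repair tissue is known for a high proportion of type III. Type V collagen (COL5A1, COL5A2 and, in some molecules, COL5A3) and the related type XI (COL11A1) are minor fibril components that take part in starting fibrils and in limiting their diameter. Types XII and XIV (COL12A1 and COL14A1) link fibrils to one another and to other matrix molecules. In skin these chains are made mainly by fibroblasts. Enzymes that hydroxylate, fold, cleave or cross-link collagen chains are described further below.

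Total counts per sample lay between 13133379 and 24895572, with a median of 17643938.5, so that 3 counts, taken as the limit of detection, corresponded to between 0.121 and 0.228 CPM (gene counts scaled to 1 common library total). No 2 libraries were identical. Earlier results of these data had set 7 libraries apart from the other samples of their state (day 2 center replicate 2, day 3 center replicate 4, day 3 edge replicate 6, day 5 edge replicate 6, day 6 center replicate 5, day 9 center replicate 5 and day 11 center replicate 1). Of these, the day 3 center library held the keratinocyte markers at a sum of 24641 CPM against at most 1761 CPM in the other 5. The day 3 edge library held them at 33.7 CPM against at least 10474 CPM, so both stood on the side of the other location. Skeletal muscle markers summed to more than 1000 CPM in 10 libraries, 3 of them among these 7, and to at most 425 CPM in all others. Every fit below was repeated without the 7 libraries and, after the data had been seen, without the 10.

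The 9 genes together took 6.97% ± 2.99 (SD, n = 6) of all gene counts in day 0 skin. Their share was 1.75% ± 0.245 in the center and 1.64% ± 0.797 at the edge on day 1 (n = 6 each). It rose in the center to 7.76% ± 2.21 on day 4 and 13.5% ± 2.28 on day 13, and reached 16.2% ± 2.79 on day 16 (n = 3). The edge lagged, with 4.22% ± 1.99 on day 4 and 11.2% ± 2.3 on day 13, and stood at 17.3% ± 1.65 on day 21 (n = 3), where the center had 14.5% ± 1.84. All samples of 5 states, among them the center on day 16 and the edge on days 19 and 21, exceeded the highest day 0 sample, and all samples of both day 1 states lay below the lowest. Day 0 itself was spread from 3.77% to 11.7%, and animals 1 to 3 (3.77% to 5.67%) did not overlap animals 4 to 6 (5.97% to 11.7%). In these bulk samples, fewer cells that make a transcript and less of that transcript per cell cannot be told apart.

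**Figure D1:**
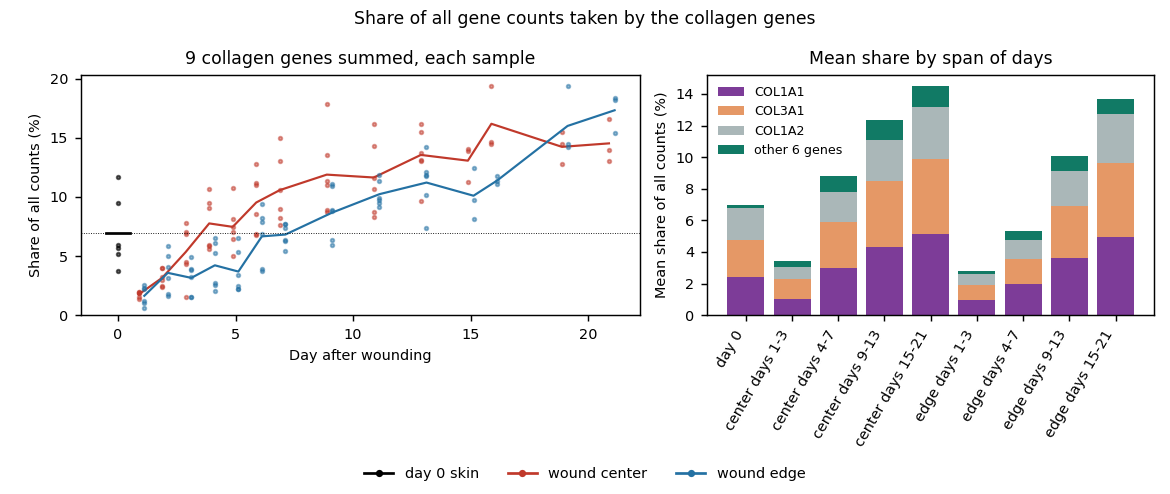
Left, the share of all gene counts (%) taken by the 9 collagen genes in each sample against the day after wounding, with points for samples, lines for the means of the center and edge states and a dotted line at the day 0 mean of 6.97%. Right, bars of the mean share (%) by span of days, divided among COL1A1, COL3A1, COL1A2 and the other 6 genes. The share is lowest on day 1 and passes the day 0 mean on day 4 in the center and on day 9 at the edge.

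Per kilobase of gene length, the only scale on which genes can be ranked against each other, COL1A1 (5009 CPM per kb, mean of 150 samples), COL3A1 (4862) and COL1A2 (3585) stood far above the rest. COL5A1 (399) and COL5A2 (388) followed at a similar level, then COL12A1 (97.4), COL5A3 (39.6), COL14A1 (21.2) and COL11A1 (13.5). COL1A1, COL1A2 and COL3A1 made up most of the summed share. The other 6 genes already took a larger part of it in the center on days 1 to 3 than in day 0 skin. There, COL5A2 and COL5A1 had means of 1721 and 1189 CPM in the center beside 10503 CPM for COL1A1 (n = 18). In day 0 skin they had 497 and 772 CPM beside 23924 CPM (n = 6). All levels of a single gene below are in CPM, without division by length.

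The chains of types I and III were low on the first days and then rose past day 0 skin. COL1A1 ranged from 12313 to 43542 CPM in day 0 skin (median 19115), from 3162 to 5414 CPM in the center on day 1 (median 4619). It ranged from 29434 to 62836 CPM in the center on day 13 (median 49331). Neither day 1 group overlapped day 0, and the center on day 13 overlapped it in part. At the edge it ranged from 1604 to 7436 CPM on day 1 (median 5553). The 3 edge samples of day 21 held 59401, 65002 and 65750 CPM, all above each day 0 sample. COL3A1, the type III chain, went from 13963 to 36706 CPM in day 0 skin (median 20455) to between 5562 and 8857 CPM in the center (median 7138) and between 2240 and 10366 CPM at the edge (median 6052) on day 1. On day 21 its 3 center samples held 43075, 47999 and 51376 CPM and its 3 edge samples 51630, 62418 and 63830 CPM, all above day 0. The lowest of these edge samples lay only just above the highest center sample, and all came from animals 1 to 3. Over days 15 to 21 COL3A1 did not differ detectably between edge and center (log2 fold change -0.07, adjusted p = 0.85, edgeR). COL1A2, the second type I chain, followed the same course between a median of 3565 CPM in the center on day 1 and of 41916 CPM at the edge on day 21, with 16848 CPM on day 0.

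By edgeR's quasi-likelihood test over all 150 samples, with Benjamini-Hochberg adjustment over the 17916 genes tested, COL1A1 in the center was lower than day 0 on days 1 to 3 (log2 fold change -1.55 ± 0.24, SE, adjusted p = 1.3e-08, 6 of 6 animals). It did not differ detectably on days 4 to 7 (0.26 ± 0.26, adjusted p = 0.38) and was higher on days 15 to 21 (1.23 ± 0.29, adjusted p = 0.00017, 6 of 6 animals). COL3A1 gave -1.17 ± 0.21 (adjusted p = 8.1e-07), 0.23 ± 0.22 (adjusted p = 0.36) and 1.13 ± 0.25 (adjusted p = 6.6e-05) over the same spans. COL1A2 was lower on days 1 to 3 (-1.80 ± 0.22, adjusted p = 3.7e-12) and higher on days 15 to 21 (0.85 ± 0.27, adjusted p = 0.004). At the edge the genes stood at -1.53 ± 0.24 for COL1A1, -1.50 ± 0.21 for COL3A1 and -1.75 ± 0.22 for COL1A2 on days 1 to 3. In the same order they stood at 1.16 ± 0.29, 1.06 ± 0.25 and 0.75 ± 0.26 on days 15 to 21. Against its own day 0, COL1A1 in the center on days 4 to 7 averaged 0.86 higher on the log2 scale in animals 1 to 3 and -0.10 in animals 4 to 6, whose day 0 samples were the higher ones (19787 to 43542 CPM against 12313 to 18442 CPM). The days sampled and the set of animals cannot be told apart within a span.

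**Figure D2:**
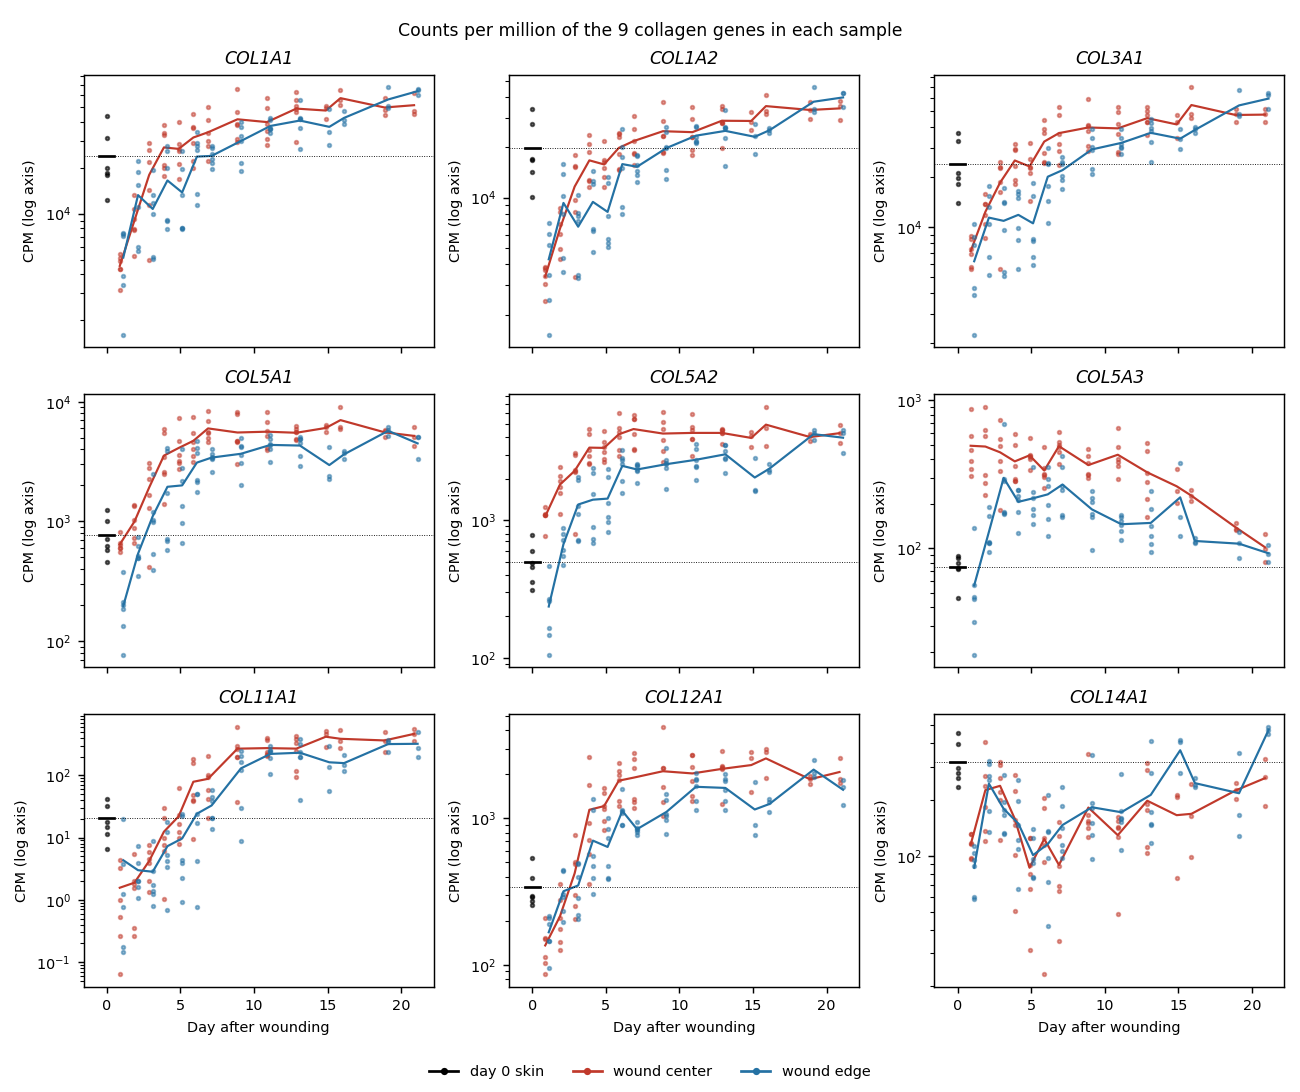
Level of each of the 9 collagen genes in CPM (log axis) against the day after wounding, 1 panel per gene. Points are samples, lines join the means of the center and edge states, and the black bar and dotted line mark the day 0 mean. The type I and III genes dip on day 1 and recover, COL5A3 is high in the center from day 1 and declines, and COL11A1 spans the widest range.

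The type V chains did not share one course. COL5A1 ranged from 459 to 1246 CPM in day 0 skin (median 668), from 555 to 810 CPM in the center on day 1 (median 618) and from 76.9 to 377 CPM at the edge on day 1 (median 192). Only the day 1 edge samples lay wholly below day 0. By day 7 it was at 4606 to 8352 CPM in the center (median 5552) and 2596 to 4058 CPM at the edge (median 3420), which overlapped neither each other nor day 0. COL5A2, which pairs with COL5A1 in the common type V molecule, was already above day 0 in the center on day 2 (1106 to 2432 CPM, median 1833, against 310 to 780 CPM, median 473), with no overlap. Of the 28 states after wounding, 20 lay wholly above day 0 for COL5A1 and 23 for COL5A2. On days 1 to 3 the center differed from day 0 by 0.33 ± 0.29 for COL5A1 (adjusted p = 0.32, edgeR) and by 1.57 ± 0.23 for COL5A2 (adjusted p = 2.3e-09, higher in 6 of 6 animals). On days 15 to 21 both were higher in every animal, at 3.08 ± 0.36 and 3.25 ± 0.27 in the center and at 2.55 ± 0.35 and 2.74 ± 0.26 at the edge.

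COL5A3, the third type V chain, was high in the center from day 1, and its means there on days 1 (493 ± 212 CPM), 7 (489 ± 79.4 CPM) and 2 (487 ± 262 CPM) lay within their SDs (n = 6 each). Day 0 skin held 46.4 to 89.0 CPM (median 76.5), the center 307 to 878 CPM on day 1 (median 425) and the edge 19.2 to 137 CPM on day 1 (median 46.2). The day 1 center samples lay above all day 0 and all day 1 edge samples. In the center it was at 371 to 609 CPM on day 7 (median 492), and the 3 samples of day 21 held 80.9, 99.7 and 125 CPM, next to day 0. Against day 0, the center gave log2 fold changes of 2.52 ± 0.27 on days 1 to 3 (adjusted p = 1.3e-14, edgeR), 2.39 ± 0.27 on days 4 to 7, 2.39 ± 0.27 on days 9 to 13 and 1.33 ± 0.26 on days 15 to 21 (adjusted p = 6.4e-06), each in 6 of 6 animals. The edge rose by 0.68 ± 0.24 on days 1 to 3 (adjusted p = 0.015, higher in 5 of 6 animals). That edge call was lost without animal 3 (0.25, adjusted p = 0.39, edgeR) and without animal 6 (0.62, adjusted p = 0.064). Markers of other cell types also changed in the center, where the median of COL5A3 was 426, 405, 370 and 175 CPM over the 4 spans. The sum of the 5 listed macrophage genes had a median of 179 CPM on day 0 and of 1259, 980, 1179 and 570 CPM over these spans. That of the 5 listed endothelium genes was 346 CPM on day 0 and then 1372, 1238, 959 and 881 CPM. Adipocyte genes, 6 of 7 found, summed to a median of 593 CPM on day 0 and of 5057, 1613, 1009 and 277 CPM. Their part in the result was not tested.

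COL11A1, a type XI chain best known from cartilage, had the widest range of the set, with a 295-fold ratio between its highest and its lowest state mean. Day 0 skin held 6.45 to 42.0 CPM (median 16.3). On day 1 it was at 0.0633 to 4.32 CPM in the center (median 0.766) and 0.146 to 19.8 CPM at the edge (median 0.993), and 1 edge sample overlapped day 0. It was at or under 3 counts in 3 samples, all from days 1 to 3, and at 0 in none. The center held 36.6 to 607 CPM on day 9 (median 232) and 202 to 402 CPM on day 11 (median 228). The 3 center samples of day 21 held 360, 465 and 561 CPM, all far above day 0. The log2 fold change against day 0 in the center went from -3.33 ± 0.54 on days 1 to 3 (adjusted p = 3.3e-08, edgeR) through 0.80 ± 0.59 on days 4 to 7 (adjusted p = 0.22) to 3.77 ± 0.73 on days 9 to 13 (adjusted p = 2.9e-06) and 4.41 ± 0.77 on days 15 to 21 (adjusted p = 4.5e-07). At the edge it was -2.78 ± 0.53, -0.49 ± 0.54 (not past the threshold), 3.31 ± 0.71 and 3.57 ± 0.73. The sum of the 4 listed chondrocyte genes had a median of 75.8 CPM in day 0 skin (range 59.0 to 93.6). Its medians over the 4 spans were 1.64, 1.59, 1.91 and 13.8 CPM in the center and 24.4, 22.3, 40.5 and 45.9 CPM at the edge. These medians were below that of day 0 in every span and higher on days 9 to 13 and 15 to 21 than on days 1 to 3, and their part in the result was not tested.

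The 2 fibril-associated genes parted. COL12A1 was at 255 to 538 CPM in day 0 skin (median 292), at 85.8 to 210 CPM in the center (median 131) and 95.6 to 214 CPM at the edge (median 168) on day 1, and both day 1 groups lay wholly below day 0. On day 7 it was at 1173 to 2808 CPM in the center (median 1778) and at 770 to 937 CPM at the edge (median 843), again without overlap with each other or with day 0. COL14A1 went the other way in the center, from 234 to 456 CPM in day 0 skin (median 286) to 31.5 to 125 CPM on day 5 (median 84.8) and 35.2 to 152 CPM on day 7 (median 78.5), wholly below day 0. Its 3 edge samples of day 21 held 449, 472 and 493 CPM and overlapped day 0 only at its top, and the 3 center samples held 185, 266 and 331 CPM. No state lay wholly above day 0 for COL14A1, and 10 lay wholly below. In the center COL12A1 differed from day 0 by -0.72 ± 0.24 on days 1 to 3 (adjusted p = 0.0068, edgeR), which was lost without animal 4 (-0.52, adjusted p = 0.079). It differed by 2.07 ± 0.28 on days 4 to 7 (adjusted p = 1.4e-10). COL14A1 differed by -0.95 ± 0.26 and -1.58 ± 0.24 over the same spans (adjusted p = 0.00095 and 6.1e-09), each in 6 of 6 animals, and by 0.09 ± 0.29 at the edge on days 15 to 21 (adjusted p = 0.84).

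Counted over the set, the center on days 1 to 3 held 2 genes higher than day 0 (COL5A2 and COL5A3) and 6 lower, beside 33.6% and 33.2% of all genes tested. On days 4 to 7 it held 4 higher (COL5A1, COL5A2, COL5A3 and COL12A1, against 34.3% of all genes) and 1 lower (COL14A1, against 36.9%). On days 9 to 13 it held 7 higher (31.7% of all genes) and again COL14A1 lower (34.1%), and on days 15 to 21 it held 8 higher (26.5%) and none lower. At the edge, 1 gene was higher (COL5A3) and 6 were lower on days 1 to 3, beside 24.9% and 23.9% of all genes. On days 4 to 7 at the edge, 4 were higher (28.4% of all genes) and 3 lower (28.1%), the latter being COL1A2, COL3A1 and COL14A1. The edge held 7 higher (25.0%) and COL14A1 lower (21.0%) on days 9 to 13, and 8 higher (18.1%) on days 15 to 21. The median log2 fold change of the 9 genes in the center went from -0.95 on days 1 to 3 to 2.39 on days 9 to 13, where that of all genes was 0.01 and -0.02. All 8 comparisons share the 6 day 0 samples. COL1A2 in the center on days 9 to 13 (0.46 ± 0.25, adjusted p = 0.093, edgeR) was the gene of types I and III that did not pass there, though it passed with the wounds of an animal summed (0.51, adjusted p = 0.02) and without animal 5 (0.65, adjusted p = 0.037). At the edge on days 9 to 13, the calls of COL1A1 (0.71 ± 0.27), COL3A1 (0.58 ± 0.23) and COL14A1 (-0.64 ± 0.27) were each lost when 1 of several animals was left out, with adjusted p up to 0.10, 0.12 and 0.28 by edgeR. COL3A1 also missed the threshold there with RLE size factors, with total counts only, without the filter on low counts and with animal as a term (adjusted p from 0.052 to 0.082), and COL1A1 with total counts only (0.053). In the center COL14A1 on days 9 to 13 was lost without animal 5 (-0.59, adjusted p = 0.053). At the edge on days 4 to 7 COL1A2 was lost without animal 4 (-0.53, adjusted p = 0.06) and COL3A1 without animal 4 or 5 (adjusted p = 0.10 and 0.051). COL5A1 at the edge on days 1 to 3 was lost without animal 1, 4 or 5 or with animal as a term (adjusted p from 0.051 to 0.080), and COL1A2 there on days 15 to 21 without animal 1, 2, 3 or 6 (adjusted p from 0.065 to 0.083).

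**Figure D3:**
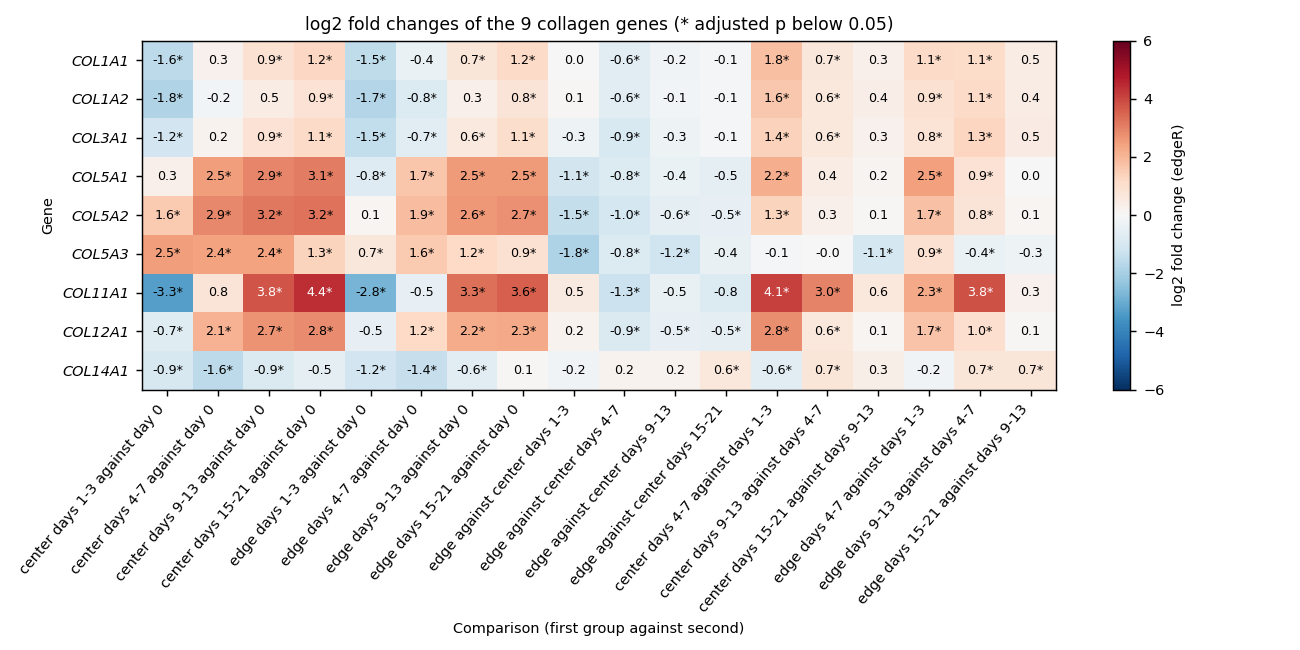
log2 fold change (edgeR) of each of the 9 collagen genes, in rows, in each of the 18 comparisons, in columns, with the value in each cell and an asterisk where the adjusted p was below 0.05. Against day 0, the type I and III genes and COL11A1 turn from negative to positive with time, COL5A2 and COL5A3 are positive in the center throughout, and COL14A1 is negative or near 0.

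Edge and center were compared to see where in the wound each collagen gene was expressed more. Counts of wounds use the pairing of edge and center. The log2 differences come from the edgeR fit with a mean per state, which does not use it, unless pairing by wound is named. Over the 72 wounds the center sample was the higher one in 51 for COL1A1 and COL1A2, 54 for COL3A1, 64 for COL5A1, 66 for COL5A2, 68 for COL5A3, 50 for COL11A1, 54 for COL12A1 and 33 for COL14A1. On days 1 to 3 the edge was lower for 3 genes, all of type V (28.5% of all genes tested were lower), with log2 differences of -1.11 ± 0.20 for COL5A1, -1.45 ± 0.15 for COL5A2 and -1.84 ± 0.17 for COL5A3, each in 6 of 6 animals. COL1A1 did not differ detectably there (0.02 ± 0.18, adjusted p = 0.93, edgeR). On days 4 to 7 the edge was lower for 8 genes (26.3% of all genes), from -0.64 ± 0.16 for COL1A1 to -1.29 ± 0.36 for COL11A1, again in 6 of 6 animals each, and COL14A1 was the exception (0.19 ± 0.17, adjusted p = 0.34). On days 9 to 13 it was lower for COL5A2 (-0.58 ± 0.15), COL5A3 (-1.18 ± 0.17) and COL12A1 (-0.50 ± 0.18), beside 25.6% of all genes, and COL12A1 was lost without animal 5 or 6 (adjusted p = 0.11 and 0.058, edgeR). On days 15 to 21 it was lower for COL5A2 (-0.51 ± 0.18) and COL12A1 (-0.55 ± 0.22), beside 14.9% of all genes, and higher for COL14A1 (0.62 ± 0.24), beside 15.2%. COL12A1 was lost whichever animal was left out, and COL5A2 and COL14A1 were each kept without only 2 of the 6 (adjusted p up to 0.15 for COL5A2, 0.19 for COL12A1 and 0.23 for COL14A1, edgeR). All 3 were also lost without the 10 libraries with skeletal muscle (adjusted p from 0.052 to 0.083, edgeR), COL12A1 and COL14A1 without the filter on low counts, and COL12A1 with RLE size factors. Pairing by wound (the replicate block) added COL5A1 (-0.54, adjusted p = 0.014) and COL5A3 (-0.47, adjusted p = 0.038), giving 5 genes in place of 3. With that block the edge was also lower for COL3A1 on days 1 to 3 (-0.42, adjusted p = 0.006 against 0.073 without it) and for COL5A1 on days 9 to 13 (-0.37, adjusted p = 0.028 against 0.10).

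The cells in the 2 locations differ. Keratinocyte markers, of which 6 of 9 were found by name, had a median sum of 43652 CPM on day 0 and between 29583 and 42178 CPM in the edge spans. In the center it was 164, 108 and 192 CPM on days 1 to 3, 4 to 7 and 9 to 13 and 9360 CPM on days 15 to 21. Fibroblast markers, all 8 found, had medians of 3434 CPM on day 0, of 2363, 5101, 6670 and 6116 CPM in the 4 center spans and of 1996, 3598, 4353 and 5348 CPM in the 4 edge spans. The part of either cell type in the differences between edge and center was not tested.

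From span to span, in the center 7 genes rose between days 1 to 3 and days 4 to 7 (19.8% of all genes did) and COL14A1 fell (29.9%), with COL12A1 up by 2.78 ± 0.18 and COL11A1 by 4.12 ± 0.46 on the log2 scale. COL5A3 did not differ detectably (-0.13 ± 0.15, adjusted p = 0.52, edgeR). At the edge 8 genes rose over the same step (12.7% of all genes), led by COL5A1 at 2.46 ± 0.21. Between days 4 to 7 and days 9 to 13, 6 genes rose in the center (22.9% of all genes), among them COL11A1 by 2.97 ± 0.39 and COL14A1 by 0.72 ± 0.18, the latter resting on animal 4 (0.45 and adjusted p = 0.078 without it, edgeR). At the edge 8 rose (17.9%) and COL5A3 fell (17.3%) by 0.38 on the log2 scale (SE 0.16, adjusted p = 0.048, edgeR). That fall missed the threshold in 4 other settings and without any of 5 animals, with adjusted p up to 0.23. Into days 15 to 21, 1 gene passed the threshold at each location. In the center COL5A3 fell (-1.06 ± 0.19, adjusted p = 3.8e-06, edgeR, lower in 6 of 6 animals, beside 13.4% of all genes). At the edge COL14A1 rose (0.74 ± 0.22, adjusted p = 0.022, higher in 6 of 6 animals, beside 2.09% of all genes), a call lost without animal 2, 3 or 5 (adjusted p = 0.077, 0.11 and 0.074). COL1A1 (0.45 ± 0.21), COL1A2 (0.44 ± 0.19) and COL3A1 (0.48 ± 0.18) at the edge did not pass over this step (adjusted p from 0.079 to 0.16, edgeR), though each was higher in 6 of 6 animals. With animal as a term all 3 passed (0.64, 0.62 and 0.64, adjusted p = 0.043, 0.033 and 0.017), as did COL1A2 in the center (0.57, adjusted p = 0.018, against 0.39 and 0.11 without it).

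Whether the 2 locations changed differently in time was tested as an interaction, the change at the edge minus that in the center. From days 1 to 3 to days 4 to 7, 5 genes rose less at the edge (6.31% of all genes were lower in this term) and COL5A3 changed more (11.9% were higher). The 5 were COL1A1 (-0.66 ± 0.24), COL1A2 (-0.69 ± 0.23), COL3A1 (-0.58 ± 0.21), COL11A1 (-1.83 ± 0.57) and COL12A1 (-1.09 ± 0.24), and COL5A3 gave 1.04 ± 0.22. The count of 6 fell to between 2 and 3 without any one of animals 1 to 5. COL3A1 gained more at the edge from days 4 to 7 to days 9 to 13 (0.63 ± 0.21, adjusted p = 0.047, edgeR, beside 2.66% of all genes). With the wound as replicate block 4 genes passed in that term, and 0 with total counts only, without the filter on low counts, with the wounds of an animal summed or without the 10 libraries with skeletal muscle. COL5A3 was the gene past the threshold from days 9 to 13 to days 15 to 21 (0.74 ± 0.26, adjusted p = 0.0499, edgeR, beside 1.83% of all genes). It was lost without the filter on low counts and without the same 10 libraries, and neither of the last 2 calls was kept without any single animal.

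The ratio of COL3A1 to COL1A1 was taken on mRNA counts, and the collagen proteins of the matrix were not measured. In day 0 skin it ranged from 0.843 to 1.13 counts of COL3A1 per count of COL1A1 (median 1.06). In the center on day 1 it ranged from 1.27 to 2.04 (median 1.58), wholly above day 0 and the only state to be so, and on day 2 from 1.04 to 2.23 (median 1.30). At the edge it ranged from 1.05 to 1.44 on day 1 (median 1.16). On days 4 and 5 the edge means were 0.785 ± 0.20 and 0.792 ± 0.152, the lowest of all states, and from day 9 on every state mean lay between 0.855 and 0.993. Corrected for gene length, the day 0 mean was 1.06 ± 0.102 and that of the day 1 center 1.64 ± 0.319. Averaged within animals on the log2 scale, the center on days 1 to 3 was 0.40 above day 0 (SD 0.19, higher in 6 of 6 animals), and the edge on days 4 to 7 was 0.31 below it (lower in 6 of 6). The edge was below the center by 0.44 on days 1 to 3 and by 0.25 on days 4 to 7 (6 of 6 animals each). Each gave p = 0.0312 by an exact permutation test that flips the signs of the 6 animals' differences (2-sided), the smallest such a test can give, and 0.075 after adjustment over the 12 comparisons of the ratio, so none passed it. In the center on days 15 to 21 the ratio was lower than day 0 by 0.15 in 6 of 6 animals, with the same p values. For this and the ratios below, the adjusted value at that smallest p depends on how many of the 12 comparisons reach it. Passing or missing 0.05 after adjustment thus does not rank 1 ratio against another. With the wounds as the unit (sign flips within wounds, the replicate block), the difference of edge and center was past 0.05 in the same 2 spans.

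The balance of the type I chains changed too. The ratio of COL1A2 to COL1A1 ranged from 0.778 to 0.905 in day 0 skin (median 0.841) and from 0.553 to 0.675 in the center on day 13 (median 0.593), and 23 of the 28 later states lay wholly below day 0. The log2 difference from day 0 ran from -0.23 in the center on days 1 to 3 to -0.45 in the center on days 9 to 13. All 8 differences from day 0, at either location, were negative in 6 of 6 animals (exact sign-flip permutation p = 0.0312, adjusted p = 0.0469), and all 8 use the same day 0 samples. Between edge and center the ratio did not differ detectably in any span, with differences from -0.02 to 0.05.

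**Figure D4:**
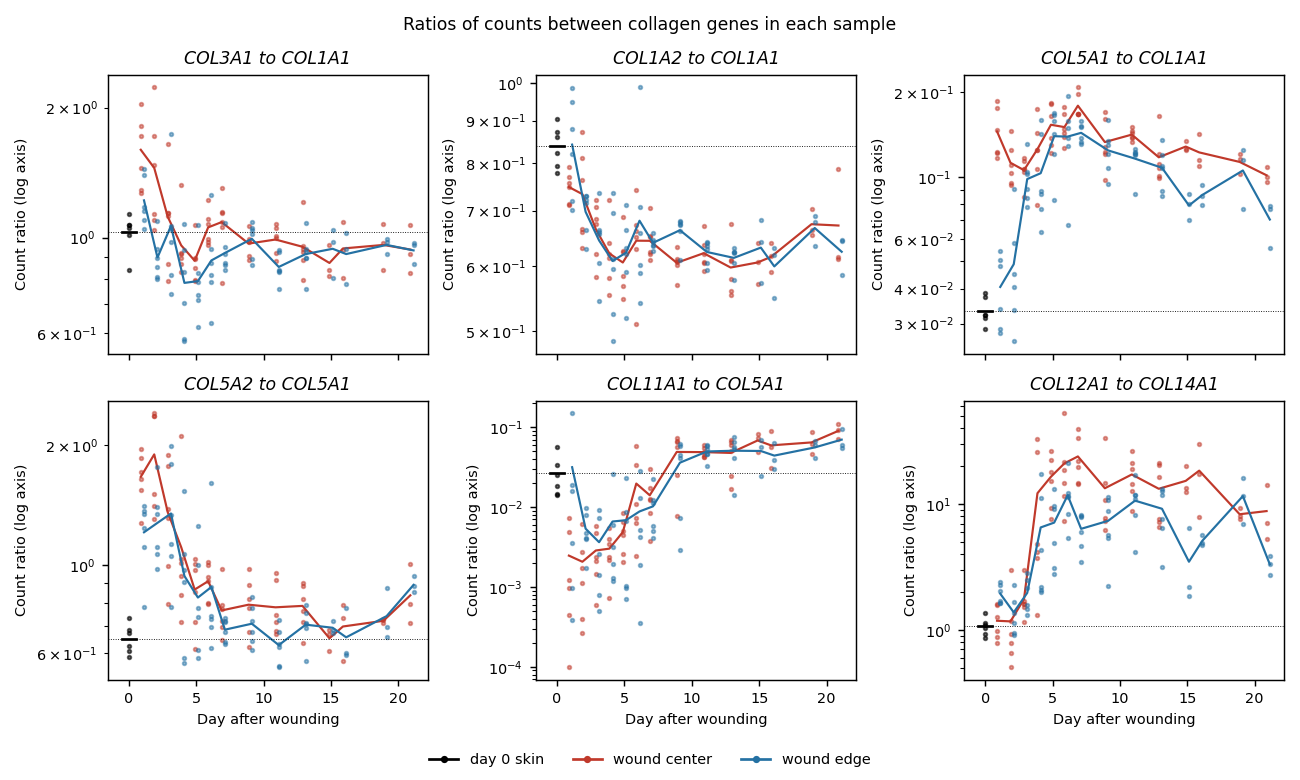
Ratios of counts (log axes) of 6 pairs of collagen genes in each sample against the day after wounding, with points for samples, lines for state means and a dotted line at the day 0 mean. COL3A1 to COL1A1 is highest in the center on days 1 and 2, COL1A2 to COL1A1 stays below day 0 from day 2 on, and COL5A1 to COL1A1 stays above it in the center from day 1.

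Relative to COL1A1, COL5A1 was at 0.0286 to 0.0386 in day 0 skin (median 0.0322) and at 0.167 to 0.208 in the center on day 7 (median 0.168), and 26 of 28 later states lay wholly above day 0. The difference from day 0 was a factor of 4.48 in the center on days 4 to 7 and of 1.58 at the edge on days 1 to 3, and it was positive in 6 of 6 animals in all 8 comparisons (exact sign-flip permutation p = 0.0312, adjusted p = 0.0341). COL5A2 to COL5A1 was at 0.587 to 0.734 in day 0 skin (median 0.650), at 1.30 to 2.41 in the center on day 2 (median 1.95) and at 0.571, 0.734 and 0.794 in the 3 center samples of day 16. It was thus high early and close to day 0 late, with factors against day 0 of 2.52 on days 1 to 3 and 1.11 on days 15 to 21 in the center, both in 6 of 6 animals (adjusted p = 0.0417 by the same exact permutation test). The annotated spans of COL3A1 and COL5A2 overlap by 3960 bases on opposite strands, and whether counting used the strand is not given in the sources used here, so reads of either gene in that stretch are uncertain.

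COL11A1 to COL5A1 turned from below to above day 0. The factor against day 0 in the center was 0.0583 on days 1 to 3, 0.261 on days 4 to 7 and 2.81 on days 15 to 21, each with the same sign in 6 of 6 animals (exact sign-flip permutation p = 0.0312, adjusted p = 0.0625, not past the threshold). COL12A1 to COL14A1 was at 0.862 to 1.36 in day 0 skin (median 1.07) and at 14.5 to 39.2 in the center on day 7 (median 20.9), with no overlap. It was 13.2-fold above day 0 in the center and 6.12-fold at the edge on days 4 to 7, and the edge was at 0.463 times the center, all in 6 of 6 animals (exact sign-flip permutation p = 0.0312, adjusted p = 0.0469).

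Over the means of the 29 states on the log2(CPM + 1) scale, COL1A1 and COL1A2 had a Pearson's r of 0.99 and COL1A1 and COL3A1 of 0.98. COL11A1 and COL12A1 had r of 0.94 with COL1A1, COL5A1 had 0.91 and COL5A2 0.81. COL5A3 had between -0.42 and 0.43 with the other 8 genes, and COL14A1 between -0.42 and 0.39. These are descriptions of 29 points that share animals and, for edge and center of a day, wounds. The states of a gene were not sharply ordered. Of the 28 pairs of neighbours in the order of state means, the gap exceeded the larger of the 2 SDs in 2 for COL1A1, 1 for COL1A2, 0 for COL3A1, 1 for COL5A1, 3 for COL5A2, 1 for COL5A3, 0 for COL11A1, 3 for COL12A1 and 1 for COL14A1. Day 0 stood at rank 19 from the top for COL1A1, 18 for COL3A1, 15 for COL1A2, 26 for COL5A1, 28 for COL5A2 and COL5A3, 20 for COL11A1, 25 for COL12A1 and 3 for COL14A1.

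**Figure D5:**
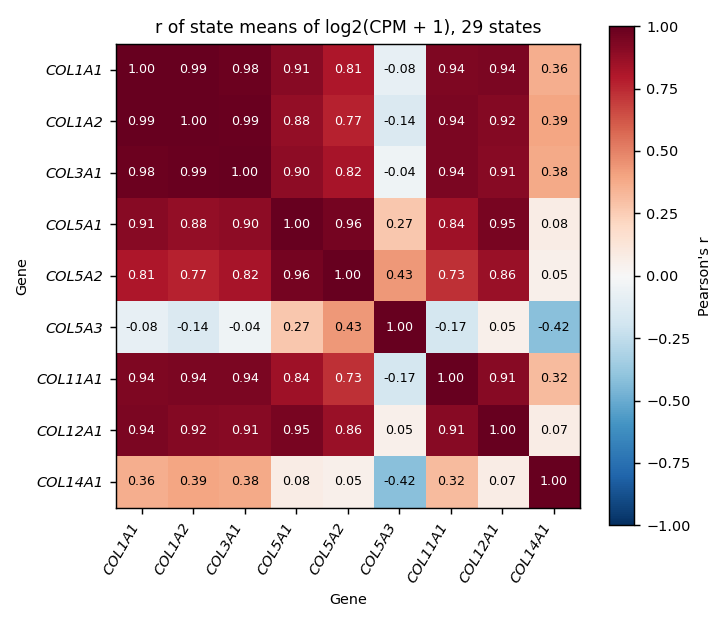
Pearson's r between the 9 collagen genes over the means of the 29 states on the log2(CPM + 1) scale, with the value in each cell and a color scale from -1 to 1. COL5A3 and COL14A1 stand apart, with r of at most 0.43 with any other gene, while the others correlate at 0.73 or more with each other.

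Among 13509 other named genes with a mean of at least 1 CPM, those whose state means were most like COL1A1 were C1QTNF6 (r = 0.98), SPARC, a collagen-binding matrix protein (0.97), AEBP1, also a collagen-binding protein (0.97), MMP23B (0.97) and LRRC17 (0.97). For COL3A1 they were SPARC (0.98), AEBP1 (0.98), MMP23B (0.98), C1QTNF6 (0.97) and ADAMTS2, which cleaves the amino propeptide of procollagens (0.96). For COL11A1 they were COL16A1 (0.98), COL8A2 (0.97), COL24A1 (0.96), SPARC (0.96) and NREP (0.96), the first 3 being collagen genes themselves. For COL12A1 they were MRC2, a receptor that takes up collagen (0.985), FRMD7 (0.98), ASPN, a small proteoglycan that binds collagen (0.98), C1QTNF3 (0.98) and CTHRC1 (0.98). For COL14A1 the likeness was weaker, with MAGI2 (0.89), ANGPTL1 (0.85), KDM3B (0.83) and ZNF385D (0.82).

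The genes that act on collagen were taken from 7 lists. Of those that modify and fold procollagen (15 rows for 14 genes), 14 rows were higher and 1 lower than day 0 in the center on days 9 to 13, where 31.7% of all genes were higher and 34.1% lower. These shares are the background for each list below. The 3 with the largest change were P4HA3, a prolyl hydroxylase subunit (4.38 ± 0.39 on the log2 scale), PLOD2 (4.14 ± 0.29) and PLOD3 (2.79 ± 0.22), both lysyl hydroxylases. PLOD2 held 8.28 to 11.3 CPM in day 0 skin and 97.8 to 291 CPM in these center samples, with no overlap. Of the genes that remove propeptides and cross-link collagen (14 rows for 13 genes), 11 were higher and 1 lower, with TGM2, a transglutaminase (5.57 ± 0.59), LOXL2, a lysyl oxidase (4.17 ± 0.32), and ADAMTS14, a procollagen propeptidase (3.13 ± 0.42). Unlike LOXL2 (1.67, higher), ADAMTS14 did not pass on days 1 to 3 (-0.67, adjusted p = 0.096, edgeR).

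Among regulators of fibril assembly (15 rows for 14 genes), 7 were higher and 5 lower in the center on days 9 to 13, the latter near the share of all genes. TNC, which encodes tenascin C (5.76 ± 0.48), and ASPN (4.64 ± 0.49) rose, and KERA, a proteoglycan best known from the cornea, fell by 5.63 (SE 0.62) on the log2 scale, from 32.9 to 170 CPM in day 0 skin to at most 10.1 CPM. Of the collagen receptors (9 rows for 8 genes), 5 were higher and 2 lower. ITGA11, an integrin chain that binds fibrillar collagen (5.20 ± 0.51), and LAIR1, an inhibitory receptor of immune cells (2.73 ± 0.31 for 1 of its 2 rows), rose, and DDR1, a collagen receptor of epithelia (-3.52 ± 0.28), fell. DDR1 was higher at the edge than in the center by 2.99 in the same span, as were the keratinocyte markers given above. Of the collagen-degrading genes (11 rows for 10 of 11 listed genes), 8 were higher and 2 lower. The collagenase genes MMP1 (10.61 ± 1.15) and MMP13 (9.08 ± 1.17) and the gelatinase gene MMP9 (9.88 ± 0.82) changed most. MMP1 went from 5 to 11 and MMP13 from 0 to 11 counts per sample in day 0 skin to at least 445 and 443 counts, so that the fitted folds of both depend on few day 0 counts.

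Of the genes for transcription factors and signals (11 genes), 8 were higher and 1 lower, with TGFB1 (2.96 ± 0.20) and TGFB3 (1.81 ± 0.20), which encode forms of transforming growth factor beta, among the higher. Of the other fibrillar and fibril-associated collagens (12 genes), 4 were higher, near the share of all genes, and 2 lower, with COL9A2 (5.61 ± 0.58) and COL27A1 (2.80 ± 0.26) higher and COL9A1 (-3.17 ± 0.74) lower, the latter at no more than 24 counts in any of these samples. The adjusted p of the genes named from the 7 lists lay between 7.2e-27 (TGFB1) and 8.9e-05 (COL9A1) by edgeR. In the center on days 1 to 3, where 33.6% of all genes were higher and 33.2% lower, 12 of 15 rows for modification and folding and 8 of 14 for propeptides and cross-links were higher than day 0. Of the 15 rows for fibril assembly regulators 2 were higher and 4 lower. Differences between lists were not tested. At the edge on days 1 to 3 these counts were 6 higher and 1 lower, 6 and 3, and 1 and 11, beside 24.9% higher and 23.9% lower of all genes. On days 9 to 13 the edge was lower than the center for 8 of 15 rows for modification and folding and 12 of 14 for propeptides and cross-links. It was also lower for 10 of 11 for collagen breakdown and 7 of 11 for transcription factors and signals, beside 25.6% of all genes. Of 15 rows for fibril assembly regulators, 7 were lower and 5 higher, and of 9 for receptors 6 were lower and 2 higher. Of the 12 other collagens, 1 was lower and 4 were higher, beside 27.5% of all genes higher.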

How the data were processed

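RNA of 150 porcine samples (poly-A enriched, Illumina paired-end) was measured as gene counts. Per the study's methods, a sequencing company removed adapter, poly-N and low-quality reads, aligned the rest and counted reads per gene, and the authors deposited raw counts without normalization. The aligner, the genome build and any use of strand in counting are not given in the sources used here. The deposited FPKM table was not used, and levels per kb were computed from the counts and the deposited gene lengths.

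Symbols came from the name column for 12300 genes and from the protein matched in the description for 9387. Groups were taken from the labels' day, animal, wound and location, and 0 sample columns of the count table were left unmatched. Total counts ranged from 13133379 to 24895572, and 3 counts were taken as the floor, which covers counting error only. Counts were fitted with edgeR 4.0.16 (R 4.3.3, TMM factors, quasi-likelihood test). Low genes were removed by filterByExpr on states, with count limits of 10 per sample and 15 in all, which left 17916 genes and kept 9 of 9 collagen genes. The fit was made in 1 model with a mean per state, contrasts being equal-weight averages of states. Benjamini-Hochberg adjusted p below 0.05 over all genes was called. Since an animal gave several samples, these p-values treat samples of 1 animal as independent, and fits with the wounds of an animal summed and with animal as a term were alternatives. SE was the fold change over the root of the test's F value. The level on the log2 scale had a pseudocount of 1 CPM. Ratios of counts of 2 genes were averaged within animals and tested by exact sign flips over animals (Python 3.11.15, scipy 1.17.1). Alternatives were RLE size factors, total counts only, no filter on low counts, DESeq2 1.42.0, animal as a term, summed wounds, the wound as replicate block, each animal left out and 7 libraries left out. Leaving out the 10 libraries with over 1000 CPM of skeletal muscle markers was added after seeing the data. The fits were also run on simulated counts drawn without animal or wound effects. That run therefore does not test the p-values for repeated samples of an animal.

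Edge and center samples are paired by animal and wound in the labels. Their deviations from the state means correlated with a mean r of 0.27, positive in 64 of 72 wounds and over 0.1 in 58. The collagen genes, gene lists and tests were chosen with earlier results of these data known. All 9 collagen genes are named, and of each of 7 pathway lists up to 3 called genes with the largest fold change in the center on days 9 to 13. The 5 genes most like each of COL1A1, COL3A1, COL11A1, COL12A1 and COL14A1 over the state means are also named. Some genes that this rule picks are not reported here.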

Additional observations from a re-analysis of the deposited data

Results flagged for a closer look

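In 210 groups of 6 samples (9 genes and a ratio, 21 states), the sample at one end was compared with the others by its gap to the nearest other sample over the group's range, against the limit of Dixon's test for 6 samples. The limit was passed in 12 groups, and chance alone gives about 1 in 20, or 10.5. Of the type III chain, COL3A1, the center on day 3 had 1 low sample, replicate 4 (5558 CPM against 16276 to 24728 CPM, ratio 0.72), which was also low for COL5A2 (792 CPM against 2236 to 3080 CPM, 0.764). That library is one of the 7 set apart and held keratinocyte markers at 24641 CPM. COL5A2 was also low in the center on day 1 in replicate 5 (764 CPM against 1087 to 1253 CPM, 0.712) and at the edge on day 7 in replicate 1 (1861 CPM against 2279 to 2568 CPM, 0.629).

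Wound J of animal 5 on day 13 (replicate 4) gave 3 of the 12. Its center sample was low for COL5A2 (3591 CPM against 4300 to 4597 CPM, 0.73) and for COL12A1 (1246 CPM against 2169 to 2890 CPM, 0.659), and its edge sample was low for COL11A1 (40.8 CPM against 197 to 386 CPM, 0.699). For COL5A3 the day 0 skin of animal 2 was low (46.4 CPM against 72.7 to 89.0 CPM, 0.688).

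For COL14A1, the center on day 6 had a low replicate 4 (23.2 CPM against 92.8 to 204 CPM, 0.634), the center on day 9 a high replicate 2 (351 CPM against 127 to 165 CPM, 0.739) and the center on day 11 a low replicate 1 (49.1 CPM against 126 to 162 CPM, 0.787), a library among the 7 set apart. The ratio of COL3A1 to COL1A1 was high in the center on day 4 in replicate 4 (1.32 against 0.83 to 0.918, 0.782).

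The change in time differed between edge and center, by the interaction term of the edgeR fit, in 8 cases. From days 1 to 3 to days 4 to 7 the log2 change at the edge minus that in the center was -0.664 for COL1A1, -0.691 for COL1A2, -0.584 for COL3A1, -1.832 for COL11A1, -1.091 for COL12A1 and 1.037 for COL5A3. From days 4 to 7 to days 9 to 13 it was 0.626 for COL3A1, and from days 9 to 13 to days 15 to 21 it was 0.744 for COL5A3.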

How the results depend on the processing

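Of the 109 calls of a collagen gene in 162 comparisons, 92 were kept under every alternative, 17 were lost without at least 1 animal, 7 of these also under another alternative, and 0 reversed. Counts of called genes moved by over 1.5 times as follows. Between edge and center on days 15 to 21 (3 genes), 5 were called with the wound as replicate block or with wounds summed, and 1 without the filter on low counts. Without the libraries with skeletal muscle 1 was called as well, which was none of the 3. From days 9 to 13 to days 15 to 21, 2 were called in the center with animal as a term (in place of 1), and at the edge 2 with DESeq2 or with wounds summed and 4 with animal as a term (in place of 1). In the interaction from days 4 to 7 to days 9 to 13 (1 gene), the replicate block gave 4, and total counts only, no filter on low counts, summed wounds and leaving out the libraries with muscle gave 0. In that from days 9 to 13 to days 15 to 21 (1 gene), no filter and no libraries with muscle gave 0. Without each animal in turn, counts ranged from 5 to 7 at the edge on days 9 to 13 against day 0, from 3 to 5 and from 0 to 2 between edge and center on days 1 to 3 and 15 to 21, from 0 to 1 at the edge from days 9 to 13 to days 15 to 21, and from 2 to 6, 0 to 0 and 0 to 0 in the 3 interactions. Outside the calls named in the report, the paired fit by wound changed no call of edge against center.

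Fold changes that changed sign were not past the threshold in the reported fit. Between edge and center on days 1 to 3, COL1A1 gave -0.054 and COL1A2 -0.039 with the replicate block, -0.024 and -0.021 without the 7 libraries, and COL1A1 -0.0037 with total counts only. With total counts only, COL14A1 at the edge on days 15 to 21 gave -0.046, COL5A2 in the center -0.0018 and COL5A1 at the edge -0.0093, the last 2 from days 9 to 13 to days 15 to 21. COL5A3 in the center from days 4 to 7 to days 9 to 13 gave 0.022 with DESeq2 and with RLE size factors, 0.020 without the filter and with wounds summed, and 0.038 without the 7 libraries. Without each animal in turn, ranges that crossed 0 against day 0 were -0.35 to 0.011 for COL1A2 (center, days 4 to 7), -0.17 to 0.28 for COL5A2 (edge, days 1 to 3) and -0.048 to 0.32 for COL14A1 (edge, days 15 to 21). Between edge and center they were -0.77 to 1.40 for COL11A1, -0.11 to 0.13 for COL1A1 and -0.040 to 0.17 for COL1A2 on days 1 to 3, -0.072 to 0.56 for COL14A1 on days 9 to 13 and -0.11 to 0.0050 for COL3A1 on days 15 to 21. Between spans they were -0.19 to 0.019 and -0.17 to 0.13 for COL5A3 in the center into days 4 to 7 and days 9 to 13, and -0.040 to 0.085 for COL5A1 and -0.045 to 0.15 for COL12A1 at the edge into days 15 to 21.

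For the log2 ratio of COL3A1 to COL1A1, an exact permutation of samples gave -0.15 (p = 0.0709) in the center on days 15 to 21, 0.011 (p = 0.961) at the edge on days 1 to 3 and -0.16 (p = 0.0348) at the edge on days 9 to 13, against day 0. Without the 7 libraries the edge on days 4 to 7 gave -0.28 (exact permutation p = 0.0625), as did edge against center then with medians within animals (-0.21, p = 0.0625). COL1A2 to COL1A1 gave 0.017 between edge and center on days 1 to 3 with sign flips within wounds (replicate block), and on days 4 to 7, with medians, it gave -0.0039 and COL11A1 to COL5A1 gave 0.014. The cause of these changes was not tested. With total counts only, the median log2 fold change of all genes lay between -0.20 and 0.14 over the 18 comparisons, and the share of higher among all calls moved by over 10 percentage points in 9, the most at the edge from days 4 to 7 to days 9 to 13 (21.0% against 50.9%). With RLE size factors it moved so in 1 (41.6% against 28.9% at the edge from days 9 to 13 to days 15 to 21). Depth limits COL11A1 on days 1 to 3, where 3 samples lay at or under 3 counts.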
